A study of Mus musculus with 6 samples.

Results

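Neutrophil granule genes encode the proteins that developing neutrophils pack into storage granules. The 10 genes described here, Mpo, Elane, Prtn3, Ctsg, Ms4a3, Lyz2, Hp, Camp, Ngp and S100a8, were chosen by name, and each was found under a single Ensembl identifier among the 38293 genes of the deposited gene counts. All 10 passed the expression filter and were among the 14396 genes tested. RNA had been sequenced from E14.5 C57BL/6 embryos, 3 wt and 3 VavCre+ hnRNP L fl/fl (called hnRNP L deficient), with 1 embryo in each library. In the hnRNP L deficient embryos a Cre recombinase under the Vav promoter, which is active in hematopoietic cells, deletes the floxed alleles of the splicing factor hnRNP L. The labels give fetal liver as the source and the whole embryo as the tissue, while the methods of the study describe sorted Lin- cKit+ fetal liver cells, a fraction enriched for hematopoietic stem and progenitor cells. The labels call the controls wild-type and do not say whether they carried Cre, and the study describes the sequenced controls as hnRNP L fl/fl.

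Granule genes are transcribed in waves as a neutrophil matures. Azurophil (primary) granules are filled at the promyelocyte stage with myeloperoxidase (Mpo) and the serine proteases neutrophil elastase (Elane), proteinase 3 (Prtn3) and cathepsin G (Ctsg). Specific (secondary) granules follow at the myelocyte stage, with cathelicidin (Camp), neutrophilic granule protein (Ngp), lactoferrin (Ltf) and lipocalin 2 (Lcn2), and S100a8, an abundant calcium-binding protein of the cytosol, is also a late gene. Ms4a3 is a membrane protein of granulocyte and monocyte progenitors. Lyz2, a lysozyme, is also made by macrophages, and Hp, haptoglobin, is also a hepatocyte product.

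The libraries held between 55952160 and 76157226 reads on genes. Levels are given as CPM (reads scaled to a common normalized library size), and 3 reads make 0.0402 to 0.0540 CPM. Where a gene has 3 values for a genotype, these are in the order of replicates 1 to 3. Hnrnpl itself had 528 to 552 CPM in the wt libraries and 242 to 288 CPM in the hnRNP L deficient libraries. Ly6g, the defining surface marker of mature neutrophils, had no read in 5 libraries and 0.0670 CPM in hnRNP L deficient replicate 3. The granule genes set individual libraries apart within both genotypes. Wt replicate 2 was the highest of the wt libraries for 10 of 10 members, as for 39.9% of all genes tested, and hnRNP L deficient replicate 1 was the lowest of its genotype for 10 of 10 members, as for 39.8% of all genes tested. Results that rest on these libraries are therefore also given without them. In bulk RNA, fewer cells of a type and less RNA per cell cannot be told apart.

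None of the 10 granule genes passed the test between the genotypes (edgeR quasi-likelihood test, 0 of 10 at an adjusted p under 0.05 and 0 of 10 at an unadjusted p under 0.05). Over all genes tested, 19.2% were called, 9.85% as lower and 9.32% as higher in hnRNP L deficient cells, and 37.6% had an unadjusted p under 0.05. With DESeq2, 0 of 10 were called and 3 (Mpo, Prtn3 and Ctsg) had an unadjusted p under 0.05, where 29.9% of all genes were called. With limma-voom, both counts were 0, and 37.2% of all genes were called. The CPM of the genotypes overlapped for 10 of 10 members, while they did not overlap for 45.5% of all genes (22.7% in each direction). The log2 fold change was negative for 9 members and positive for Ngp, with a median of -2.44 over the members and -0.03 over all genes tested. Without wt replicate 2 the median over the members was 0.12, and without hnRNP L deficient replicate 1 it was -2.004. The study, which tested these libraries with DESeq, lists Mpo, Prtn3, Ctsg and Hp with fold decreases in knockout cells.

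Mpo, the peroxidase that makes hypochlorous acid from hydrogen peroxide, lies on chromosome 11 of GRCm38 (87793581 to 87804413, plus strand). It had 471, 5615 and 1165 CPM in the wt embryos, against 191, 568 and 537 CPM in the hnRNP L deficient embryos. Wt replicates 2 and 3 lay above every hnRNP L deficient library, but wt replicate 1 lay below hnRNP L deficient replicates 2 and 3, so that the groups overlapped. The estimated difference was a log2 fold change of -2.48, with a standard error of 1.05 and an edgeR adjusted p = 0.152.

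Elane and Prtn3, the genes of neutrophil elastase and proteinase 3, lie beside each other on the plus strand of chromosome 10 (79886247 to 79888215 and 79874476 to 79883174). Elane had 9.25, 589 and 46.9 CPM in the wt embryos, against 5.92, 44.2 and 39.5 CPM in the hnRNP L deficient embryos. Wt replicate 3 and hnRNP L deficient replicates 2 and 3 were thus close to each other, and the replicate 1 library was the lowest of each genotype. In the edgeR fit the log2 fold change of Elane was -2.85 with standard error 1.71 (adjusted p = 0.288). Prtn3 had 50.6, 1005 and 145 CPM in the wt embryos, against 24.3, 95.8 and 92.0 CPM in the hnRNP L deficient embryos, in the same order. EdgeR estimated a log2 fold change of -2.50 (standard error 1.29, adjusted p = 0.225). An exon of Prtn3 overlaps Plppr3 on the opposite strand over 159 bases, and the strand setting of the counting is not given in the sources used here. Plppr3 had 19.7, 115 and 40.5 CPM in the wt embryos, against 7.30, 14.98 and 14.5 CPM in the hnRNP L deficient embryos, also highest in wt replicate 2. Mpo likewise overlaps the antisense gene Gm11505 over 512 exonic bases, on which no library had more than 10 reads.

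Ctsg, a chymotrypsin-like protease (chromosome 14, 56099881 to 56102574, minus strand), had 18.8, 487 and 59.1 CPM in the wt embryos, against 9.01, 43.2 and 40.2 CPM in the hnRNP L deficient embryos. Only hnRNP L deficient replicate 1 lay below every wt library. The estimated difference was a log2 fold change of -2.61, with a standard error of 1.40 and an edgeR adjusted p = 0.241. Ms4a3 (chromosome 19, 11629496 to 11640851, minus strand) had 4.77, 201 and 14.9 CPM in the wt embryos, against 3.34, 20.4 and 18.1 CPM in the hnRNP L deficient embryos. Here hnRNP L deficient replicates 2 and 3 exceeded wt replicates 1 and 3. In the edgeR fit the log2 fold change of Ms4a3 was -2.40 with standard error 1.59 (adjusted p = 0.329).

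Wt replicate 2 decided the size of these differences. Without it, the log2 fold change was -0.92 for Mpo (standard error 0.69), -0.47 for Prtn3 (0.87), -0.34 for Ctsg (0.95) and 0.09 for Elane (1.25), so that Elane changed direction. Ms4a3 also changed direction, to 0.50 (standard error 1.00). The edgeR adjusted p of these 5 genes was between 0.406 and 0.969, where 24.1% of all genes were called. Without hnRNP L deficient replicate 1 instead, the log2 fold changes lay between -2.35 (Elane) and -1.92 (Ms4a3), with edgeR adjusted p between 0.300 and 0.511.

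**Figure D1:**
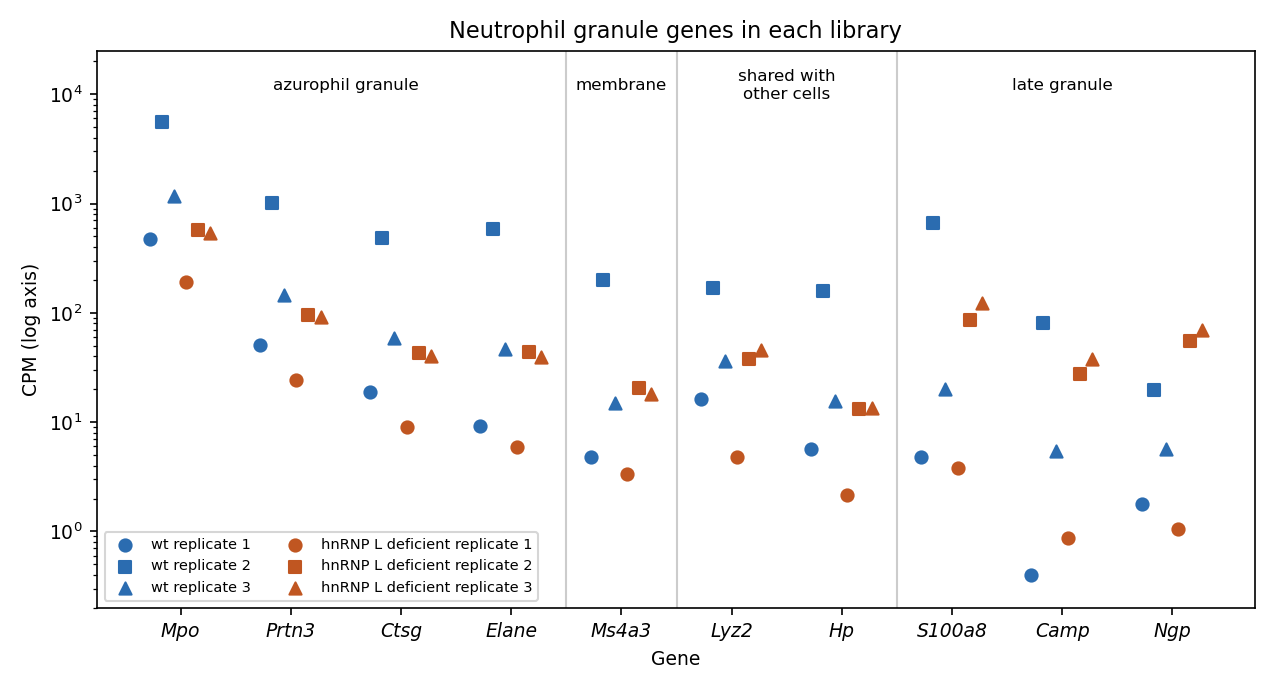
CPM of each granule gene on a log axis, with 1 point for each library, wt in blue and hnRNP L deficient in orange, and the replicate number shown by the shape. Wt replicate 2 (blue squares) lies highest for 9 genes, with 5615 CPM of Mpo, while for Ngp hnRNP L deficient replicates 2 and 3 lie highest, at 55.02 and 70.3 CPM.

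The proportions among the azurophil genes differed between libraries. Mpo gave 50.9, 9.54 and 24.9 CPM for each CPM of Elane in wt replicates 1 to 3, and 32.3, 12.9 and 13.6 in hnRNP L deficient replicates 1 to 3. The ratio was highest in the libraries with the least Mpo within each genotype and lowest in wt replicate 2, so that Elane varied more between embryos than Mpo. The ratio of Mpo to Prtn3 moved less, between 5.59 and 9.31 over the 6 libraries.

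Since the azurophil genes followed 1 pattern over the 6 libraries, their promoters were searched for binding motifs of factors known for this lineage, in the 250 bases before the RefSeq start (GRCm38.p6) on both strands. RefSeq promoters were found for 9 of the 10 members, all but Hp. The letters AGGAAGT, a core bound by PU.1 and other ETS factors, were in the window of 6 of the 9, and in 7.69% of 32851 promoters of the same length. This motif was chosen after the promoters had been seen, so that its share is a description. The matches are given 5′ to 3′ on the strand of the gene, with the motif or its reverse complement in capitals, because they include the 4 azurophil genes.
Mpo: tggagagagagAGGAAGTtgcctttgtcc
Elane: gtgtcccagggAGGAAGTagggctgtggc
Prtn3: aaactggaaggAGGAAGTgggacccacag
Ctsg: agaggaagaaaAGGAAGTagtcacctgtt
Lyz2: gatcggtaggaACTTCCTgttttgcacac
S100a8: ccaacactcccACTTCCTcagactcagaa
They lie at chr11:87793550-87793578, chr10:79886217-79886245, chr10:79879562-79879590, chr14:56102763-56102791, chr10:117282355-117282383 and chr3:90668888-90668916, with the motif at -223, -84, -94, -206, -100 and -172 relative to the start. Of the others searched, TTNNGNAA for C/EBP factors was in 4 of 9 members (Ms4a3, Lyz2, Ngp and S100a8) and in 36.8% of promoters, and was found 3 times in Ngp. AACGG for MYB was in Elane and Prtn3 and in 14.5% of promoters, and TGTGGT for RUNX factors in Ctsg and Lyz2 and in 14.0%. A match in these letters was not tested as a binding site.

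The late granule genes varied more than the other members between the hnRNP L deficient embryos, and their order among libraries was not that of the azurophil genes. Ngp (chromosome 9, 110419747 to 110423012, plus strand), a cystatin-like protein of specific granules, had 1.80, 19.8 and 5.67 CPM in the wt embryos, against 1.06, 55.02 and 70.3 CPM in the hnRNP L deficient embryos. Its levels in hnRNP L deficient replicates 2 and 3 exceeded every wt library, and that in replicate 1 was below every wt library. EdgeR estimated a log2 fold change of 2.21 (standard error 1.58, adjusted p = 0.362). It stayed positive without each library in turn, between 1.63 and 3.48.

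Camp, the precursor of the antimicrobial peptide cathelicidin (chromosome 9, 109847379 to 109849617, minus strand), had 0.396, 81.5 and 5.42 CPM in the wt embryos, against 0.870, 27.7 and 38.1 CPM in the hnRNP L deficient embryos. The lowest of these values rested on 22 reads in wt replicate 1 and 56 reads in hnRNP L deficient replicate 1. Both remaining hnRNP L deficient libraries lay between wt replicates 2 and 3. The estimated difference was a log2 fold change of -0.39, with a standard error of 1.98 and an edgeR adjusted p = 0.907.

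S100a8 (chromosome 3, 90668978 to 90670035, plus strand), which forms the calprotectin heterodimer with S100a9, had 4.84, 670 and 20.1 CPM in the wt embryos, against 3.79, 86.6 and 122 CPM in the hnRNP L deficient embryos. As for Camp, hnRNP L deficient replicates 2 and 3 lay between wt replicates 2 and 3. In the edgeR fit the log2 fold change was -1.71 with standard error 2.08 (adjusted p = 0.592). Without wt replicate 2 the log2 fold changes of the 3 late genes were all positive, 3.48 for Ngp (standard error 2.10), 2.91 for Camp (2.13) and 2.50 for S100a8 (1.84), with edgeR adjusted p between 0.329 and 0.413.

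**Figure D2:**
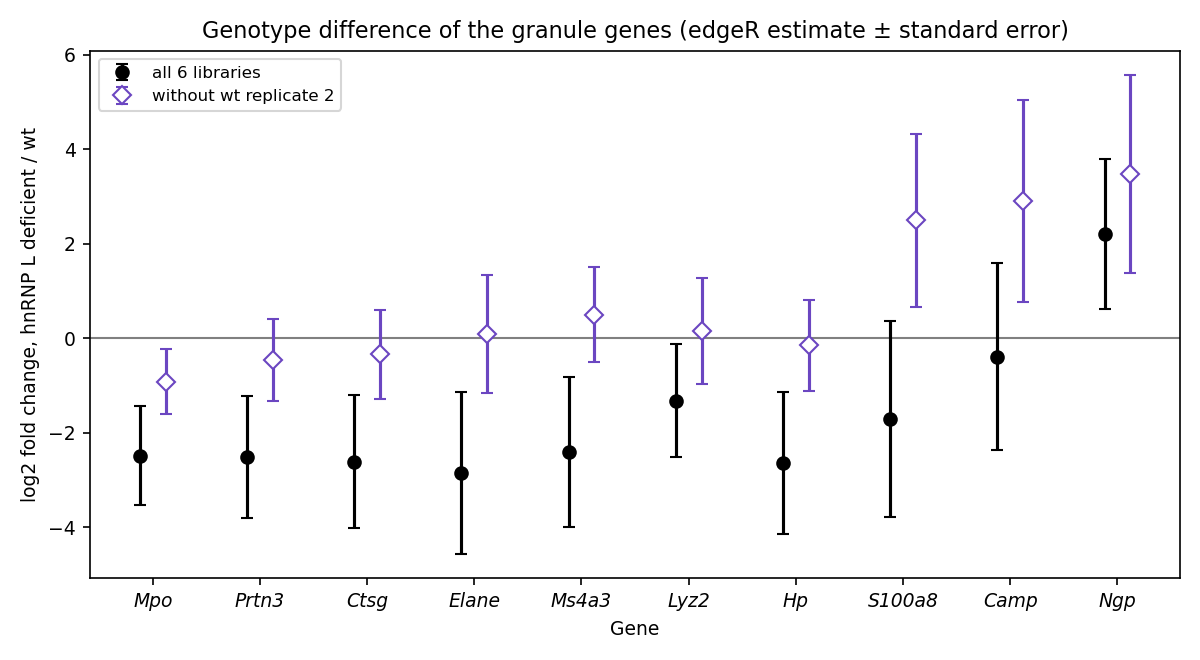
Log2 fold change of hnRNP L deficient against wt for each granule gene, with bars of 1 standard error, from all 6 libraries (filled) and without wt replicate 2 (open). The azurophil genes move from between -2.85 and -2.48 to between -0.92 and 0.09, and Camp and S100a8 from negative to positive values.

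Early and late genes were then set against each other within each library. The mean log2(CPM + 0.1) of Camp, Ngp and S100a8 minus that of Mpo, Elane, Prtn3 and Ctsg was -4.76, -3.45 and -4.09 in wt replicates 1 to 3 and -3.78, -0.99 and -0.45 in hnRNP L deficient replicates 1 to 3. HnRNP L deficient replicates 2 and 3 lay above every wt library, while replicate 1 lay within the wt range. The mean was -4.10 ± 0.65 in wt and -1.74 ± 1.79 in hnRNP L deficient libraries (SD, n = 3 each), a difference of 2.36 on the log2 scale. The difference was 3.39 without hnRNP L deficient replicate 1 and 2.69 without wt replicate 2. This score over chosen genes was given no test.

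Per exonic length, the summed FPKM (CPM for each kilobase of exon) of the 3 late genes was 4.61%, 33.1% and 7.72% of that of the 4 azurophil genes in wt replicates 1 to 3. In hnRNP L deficient replicates 1 to 3 it was 8.82%, 67.0% and 98.3%. On this scale, which S100a8 dominates, wt replicate 2 also stood above the other wt libraries.

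**Figure D3:**
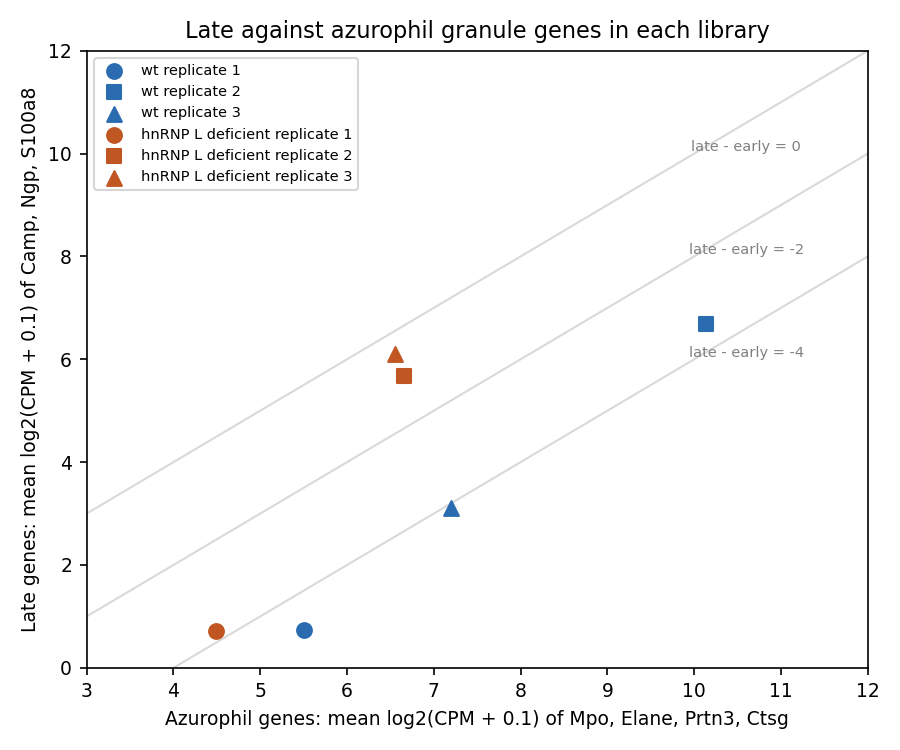
Mean log2(CPM + 0.1) of the late granule genes against that of the azurophil granule genes, with 1 point for each library and grey lines of equal difference. The wt libraries and hnRNP L deficient replicate 1 lie near the line of a difference of -4, between -4.76 and -3.45, and hnRNP L deficient replicates 2 and 3 lie above it at -0.99 and -0.45.

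The late genes did not share 1 pattern relative to Mpo. Ngp was lower than Mpo by similar amounts in the wt libraries, with differences in log2(CPM + 0.1) of -7.95, -8.14 and -7.66, and the same difference was -7.37, -3.37 and -2.93 in the hnRNP L deficient libraries. No hnRNP L deficient library overlapped the wt range for this difference, but replicate 1, with 68 reads of Ngp, lay just above wt replicate 3. The share of other gene pairs without overlap was not computed. Camp had differences from Mpo of -9.89, -6.10 and -7.72 in wt and -7.63, -4.35 and -3.81 in hnRNP L deficient libraries, and S100a8 had -6.58, -3.07 and -5.85 and then -5.62, -2.71 and -2.13. For both, wt replicate 2 was well above the other wt libraries, and hnRNP L deficient replicate 1 lay within the wt range.

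Ltf and Lcn2, which were picked for their likeness to Ngp after their values had been seen, had wt differences from Mpo of -8.50, -9.17 and -8.22 for Ltf and -9.14, -8.77 and -9.02 for Lcn2. In the hnRNP L deficient libraries the differences were -7.70, -3.94 and -3.59 for Ltf and -8.18, -4.86 and -4.49 for Lcn2. As for Ngp, replicate 1 was close to the wt libraries and replicates 2 and 3 were far above them. S100a9, the partner of S100a8, followed S100a8, with 0.812 to 1.42 CPM for each CPM of S100a8 over the 6 libraries.

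**Figure D4:**
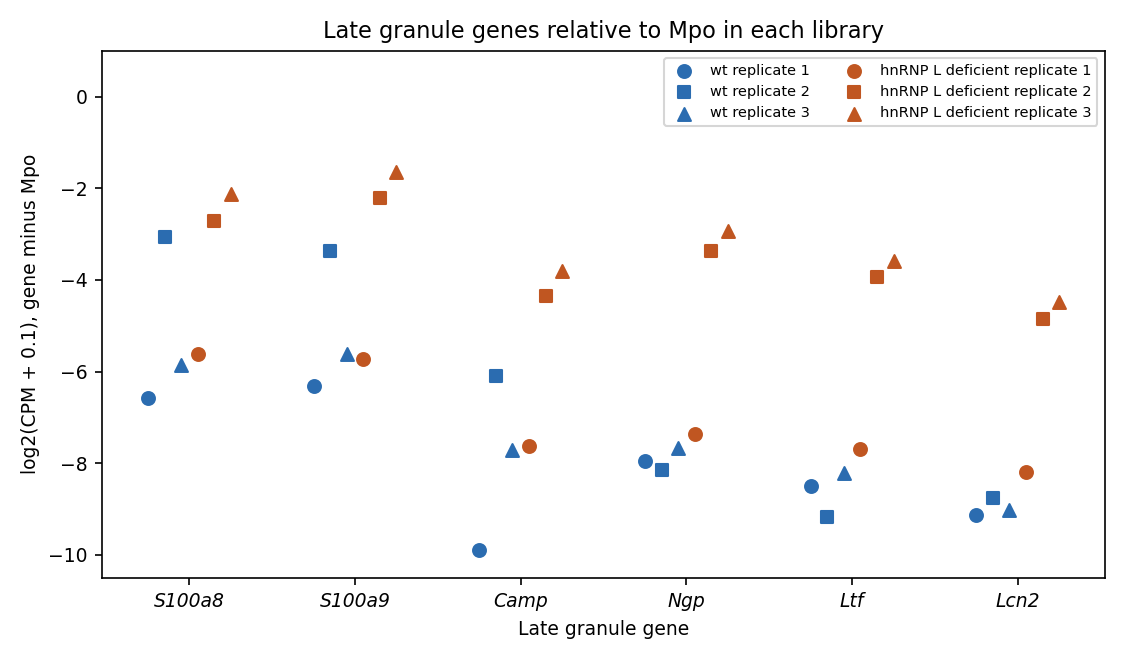
Difference in log2(CPM + 0.1) between each of 6 late granule genes and Mpo, with 1 point for each library, wt in blue and hnRNP L deficient in orange. For Ngp, Ltf and Lcn2 the 3 wt points lie within 1 unit of each other and hnRNP L deficient replicates 2 and 3 lie between -4.86 and -2.93, whereas for S100a8, S100a9 and Camp wt replicate 2 lies above the other wt points.

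The libraries differed in more than genotype. In the labels, the embryo numbers of wt replicate 1 and hnRNP L deficient replicate 1 share their first part, as do those of hnRNP L deficient replicates 2 and 3, and the labels do not say what it stands for. Between the former pair, a comparison made after the data had been seen and without a test, the CPM in hnRNP L deficient cells was 0.406 to 0.639 times that in wt cells for the azurophil genes. It was 0.587 times for Ngp, 0.783 times for S100a8 and 2.20 times for Camp. Between hnRNP L deficient replicates 2 and 3 the CPM of the 10 members agreed within a ratio of 0.888 to 1.41, with the 3 late genes all higher in replicate 3 and the 4 azurophil genes all lower. From hnRNP L deficient replicate 1 to replicate 2 the azurophil genes differed by 2.97 to 7.47 times and the late genes by 22.8 to 52.1 times. The part of the shared number in these differences cannot be told apart from that of the embryo. An edgeR fit added after the data had been seen took the first part of the embryo number as a block. In it the genotype difference rested on that 1 pair alone, 1 embryo against 1 embryo. Its error rested on 1 residual degree of freedom and on the variation that edgeR borrows from other genes. There 7 of 10 members (Mpo, Elane, Prtn3, Ctsg, Ms4a3, Lyz2 and Hp) were called as lower, where 37.1% of all genes were called.

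Lyz2 and Hp are expressed by other cell types as well. Lyz2 (chromosome 10, 117277331 to 117282321, minus strand) had 16.2, 168 and 36.6 CPM in the wt embryos, against 4.85, 38.1 and 45.5 CPM in the hnRNP L deficient embryos. HnRNP L deficient replicates 2 and 3 lay above wt replicates 1 and 3. EdgeR estimated a log2 fold change of -1.32 (standard error 1.20, adjusted p = 0.470), and 0.16 without wt replicate 2. Lyz1, the near-identical neighbour of Lyz2, had between 0 and 7 reads in each library.

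Hp (chromosome 8, 109575128 to 109579172, minus strand) had 5.73, 159 and 15.6 CPM in the wt embryos, against 2.14, 13.2 and 13.5 CPM in the hnRNP L deficient embryos. The order of the libraries was that of Prtn3 and Ctsg except between hnRNP L deficient replicates 2 and 3. The estimated difference was a log2 fold change of -2.64, with a standard error of 1.49 and an edgeR adjusted p = 0.263, and -0.15 without wt replicate 2. The hepatocyte marker albumin (Alb) had 70.7, 46.2 and 107 CPM in the wt embryos, against 9.32, 31.4 and 26.2 CPM in the hnRNP L deficient embryos. Unlike Hp, it was lowest of the wt libraries in wt replicate 2.

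Comparing the genes by their level per exonic length (FPKM), Mpo ranked first of the 10 in 5 libraries, and S100a8 in hnRNP L deficient replicate 3. The median FPKM in wt was 340 for Mpo, 83.5 for Prtn3, 57.2 for Ctsg, 47.6 for Elane, 29.0 for S100a8, 27.8 for Lyz2, 9.68 for Hp, 7.90 for Ms4a3, 7.15 for Camp and 4.64 for Ngp. The ranges of all neighbours in this order overlapped over the wt libraries. Within a library the order was firmer at the top, with Mpo above Prtn3, and Prtn3 above Ctsg, in 6 of 6 libraries, while Ctsg exceeded Elane in 3 of 6. In the hnRNP L deficient libraries the median FPKM was 157 for Mpo, 125 for S100a8, 53.1 for Prtn3, 45.0 for Ngp, 40.1 for Elane, 38.9 for Ctsg, 36.6 for Camp, 28.9 for Lyz2, 9.61 for Ms4a3 and 8.22 for Hp, again with overlapping ranges of all neighbours. Ngp thus had the lowest median in wt and the fourth in hnRNP L deficient libraries. As a share of all reads on genes, the 10 members took 0.0580%, 0.937% and 0.157% in wt replicates 1 to 3 and 0.0238%, 0.0975% and 0.0996% in hnRNP L deficient replicates 1 to 3. Mpo alone gave between 52.8% and 80.7% of these reads, with the lowest shares in hnRNP L deficient replicates 2 and 3.

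The spread between embryos was larger for the granule genes than for most genes. The SD of log2(CPM + 0.1) over the 3 wt libraries was between 1.70 (Ngp) and 3.68 (Camp), with a median of 2.41, where the median over all genes tested was 0.227. Each member was at or above the 98.7th percentile of all genes. Over the 3 hnRNP L deficient libraries the SD was between 0.88 (Mpo) and 3.33 (Ngp), with a median of 1.56, against 0.092 over all genes, and each member was at or above the 97.8th percentile. The SD was larger in wt for 8 of 10 members, and larger in hnRNP L deficient libraries for Ngp (3.33 against 1.70) and Lyz2 (1.78 against 1.71). Single libraries carried this spread. Without wt replicate 2 the median SD in wt was 1.14, and without hnRNP L deficient replicate 1 the median SD in that genotype was 0.118.

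Genes of the same program that are not members were examined from lists of known granule and neutrophil genes. Of 8 other primary granule genes 7 were tested and 0 called by edgeR, where 19.2% of all genes were. An unadjusted p under 0.05 was found for 2 (Srgn and Cst7), and for 37.6% of all genes. All 7 had negative log2 fold changes, with a median of -2.12, or of -0.14 without wt replicate 2. Srgn, the proteoglycan serglycin that binds granule proteases, had 89.7, 496 and 133 CPM in the wt embryos, against 49.7, 76.2 and 70.0 CPM in the hnRNP L deficient embryos. It did not overlap between the genotypes, but its log2 fold change of -1.87 (standard error 0.71) did not pass (edgeR adjusted p = 0.119). Without wt replicate 2 it was -0.77 (edgeR adjusted p = 0.0571). Ctsc, the protease that activates the azurophil serine proteases, had 51.6, 112 and 55.1 CPM in the wt embryos, against 51.8, 52.9 and 53.4 CPM in the hnRNP L deficient embryos, which differed by less than the spread between the wt libraries.

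Of 14 other secondary and tertiary granule genes 13 were tested and 0 called by edgeR, with 0 at an unadjusted p under 0.05. The shares over all genes were 19.2% and 37.6%. The log2 fold change was positive for 6 and negative for 7, with a median of -0.56. Without wt replicate 2, 11 of the 13 were positive with a median of 2.64, and 1 was called, Adam8 (log2 fold change 0.95, edgeR adjusted p = 0.0464), where 24.1% of all genes were. Ltf, the iron-binding lactoferrin, had 1.21, 9.66 and 3.81 CPM in the wt embryos, against 0.823, 36.8 and 44.6 CPM in the hnRNP L deficient embryos. Lcn2, which binds siderophores, had 0.738, 12.8 and 2.15 CPM in the wt embryos, against 0.559, 19.5 and 23.8 CPM in the hnRNP L deficient embryos. Both had the pattern of Ngp, with hnRNP L deficient replicates 2 and 3 above every wt library and replicate 1 below, and neither passed (edgeR adjusted p = 0.273 and 0.522). S100a9 had 5.83, 543 and 23.7 CPM in the wt embryos, against 3.53, 123 and 171 CPM in the hnRNP L deficient embryos. Cyba, a subunit of the oxidase of granule membranes, had 25.6, 85.1 and 28.8 CPM in the wt embryos, against 22.2, 22.1 and 22.3 CPM in the hnRNP L deficient embryos (edgeR adjusted p = 0.169).

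Among 12 regulators of neutrophil development, all tested, 2 were lower in hnRNP L deficient cells, where 9.85% of all genes were, and the log2 fold change was negative for 12, with a median of -2.01. Runx1, a transcription factor of definitive hematopoiesis, had 76.7, 111 and 87.4 CPM in the wt embryos, against 51.8, 46.5 and 44.6 CPM in the hnRNP L deficient embryos, and fell by 0.95 on the log2 scale (standard error 0.14, edgeR adjusted p = 0.0142). Irf8, which directs progenitors to the monocyte branch, had 11.4, 55.9 and 23.4 CPM in the wt embryos, against 2.03, 4.35 and 4.80 CPM in the hnRNP L deficient embryos, and fell by 3.02 (standard error 0.68, edgeR adjusted p = 0.0343). The groups did not overlap for either gene, as for the 22.7% of all genes that were lower without overlap. Without wt replicate 2 the log2 fold change of Irf8 was -2.22, Cebpa and Csf3r were called as well, in a fit that called 24.1% of all genes, and the median of the list was -0.79. Myb, which drives azurophil gene transcription in myeloblasts, had 443, 562 and 494 CPM in the wt embryos, against 490, 420 and 425 CPM in the hnRNP L deficient embryos (edgeR adjusted p = 0.324).

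Of 10 markers of mature neutrophils 7 were tested, and 1 was called by edgeR, as lower, where 9.85% of all genes were. An unadjusted p under 0.05 was found for 3, and for 37.6% of all genes. The log2 fold change was positive for 3 and negative for 4, with a median of -0.08, or of 0.18 without wt replicate 2. Itgb2, the common subunit of the leukocyte integrins, had 19.5, 64.5 and 18.9 CPM in the wt embryos, against 18.9, 21.1 and 25.1 CPM in the hnRNP L deficient embryos (edgeR adjusted p = 0.397). The calls of Runx1 and Irf8 were lost without wt replicate 3 or without any 1 of the hnRNP L deficient libraries, with edgeR adjusted p of up to 0.128. In each of those fits at most 17 genes were called in all.

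The genes whose log2(CPM + 0.1) followed the mean of the 4 azurophil genes most closely over the 6 libraries were, among 11619 genes with a mean of at least 1 CPM, Gfi1 (Pearson r = 0.9996), Apobr (0.9996), Hdc (0.998), Gpc1 (0.998) and Gpr141 (0.998). Gfi1 is a transcriptional repressor needed for neutrophil development, and Hdc makes histamine. Like that mean, all 5 were highest in wt replicate 2 and lowest in hnRNP L deficient replicate 1, as were 19.1% of all genes tested within their genotypes. Their selection by r over the same libraries brought this order with it, so it is no further result. Among the members outside this mean, r was 0.996 for Hp, 0.979 for Ms4a3, 0.949 for Lyz2, 0.877 for S100a8, 0.777 for Camp and 0.513 for Ngp. These r values describe 6 libraries, of which 1, wt replicate 2, had a high level, and were given no test.

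Markers of other cell types moved with some of these libraries. The 16 monocyte and macrophage markers summed to between 59.3 and 428 CPM in wt, highest in wt replicate 2, and to between 14.6 and 34.2 CPM in hnRNP L deficient libraries, and 5 of 15 tested were lower (C1qc, Mrc1, C1qa, Csf1r and Ccr2), where 9.85% of all genes were. Csf1r, the receptor of the macrophage growth factor, had 11.3, 69.3 and 27.6 CPM in the wt embryos, against 2.08, 4.61 and 4.80 CPM in the hnRNP L deficient embryos (log2 fold change -3.24, edgeR adjusted p = 0.0389), and its log2 fold change was -2.35 without wt replicate 2. Unlike Csf1r, Lyz2 was higher in hnRNP L deficient replicates 2 and 3 than in wt replicates 1 and 3. The markers of the list were not all alike in this. Without wt replicate 2 the log2 fold change was negative for 14 of the 15 tested and positive for 1, Ly6c2 (0.0953). It was 0.16 for Lyz2 in that fit. The macrophage marker Vsig4 had no read in 5 libraries.

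The 10 hepatocyte markers summed to between 123 and 261 CPM in wt, lowest in wt replicate 2, and to between 23.0 and 79.1 CPM in hnRNP L deficient libraries, lowest in replicate 1. None of them was highest in wt replicate 2 within wt, where Hp was. Of the 10, 2 were lower in hnRNP L deficient cells, Trf and Ttr (edgeR adjusted p = 0.0486 and 0.0492), against 9.85% of all genes. The 8 mast cell and basophil markers summed to 23.2, 92.4 and 29.0 CPM in the wt embryos and to 14.2, 61.6 and 47.3 CPM in the hnRNP L deficient embryos. Of 7 tested, 0 were called by edgeR (19.2% of all genes) and 2 had an unadjusted p under 0.05 (37.6% of all genes). The log2 fold changes of these had opposite signs, -3.39 for Prss34 and 1.93 for Tpsb2. The 8 erythroid markers summed to between 1110 and 1370 CPM over the 6 libraries. The 8 stem and progenitor markers summed to between 580 and 857 CPM in wt and between 390 and 427 CPM in hnRNP L deficient libraries, and 5 of 8 were lower (Flt3, Meis1, Hlf, Cd34 and Kit), against 9.85% of all genes. Each call named in this paragraph and among the monocyte and macrophage markers was lost when some single library was left out. The highest edgeR adjusted p over those fits lay between 0.0867 (Flt3) and 0.157 (Ccr2). The part of these other cell types in the levels of the granule genes was not tested.

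**Figure D5:**
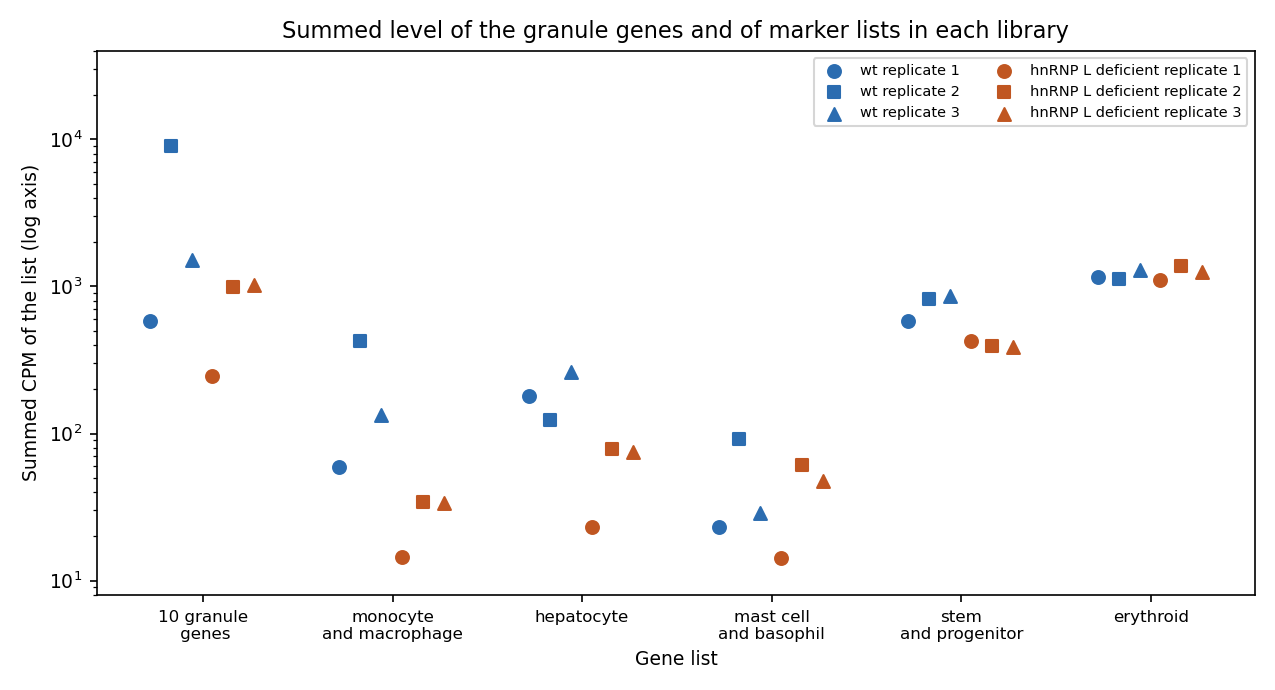
Summed CPM, on a log axis, of the 10 granule genes and of 5 lists of marker genes, with 1 point for each library, wt in blue and hnRNP L deficient in orange. The granule genes span from 247 to 8993 CPM with wt replicate 2 highest, the hepatocyte markers are lowest in wt in that library, and the erythroid markers stay between 1110 and 1370 CPM.

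Since hnRNP L acts on splicing, the exon bins of the granule genes were also compared. These counts covered 5 embryos, all 3 wt and hnRNP L deficient replicates 2 and 3. The 10 genes had 77 exon bins, from 3 in S100a8 to 25 in Mpo, and all were tested. None passed the test of a change in usage relative to the rest of its gene (edgeR diffSpliceDGE, 0 of 77 at an adjusted p under 0.05 and 0 of 77 at an unadjusted p under 0.05). The levels of these genes differed widely between embryos, and only 3 wt and 2 hnRNP L deficient libraries were compared. The absence of calls therefore does not show that usage was unchanged. Over all 176996 bins tested, 0.0288% were called and 1.03% had an unadjusted p under 0.05. With limma's diffSplice both member counts were also 0, where 0.123% of all bins were called and 2.67% had an unadjusted p under 0.05. The changes in log2 usage lay between -0.44 and 0.42 in 75 of the 77 bins. The exceptions were bins 1 and 3 of Mpo, which had only 71 to 260 and 6 to 109 reads in each library and changes of 0.76 and 1.29. The change of 0.42 was that of bin 7 of Ms4a3, with 4.53%, 5.17% and 4.85% of the reads of its gene in wt replicates 1 to 3. Its shares of 7.25% and 6.43% in hnRNP L deficient replicates 2 and 3 lay above all of these, and it was not called. Bin 17 of Mpo, the one with the most reads, held 11.7%, 11.9% and 11.4% of the reads of the gene in wt replicates 1 to 3 and 11.2% and 11.47% in hnRNP L deficient replicates 2 and 3. The share of this bin thus moved little between libraries in which the read count of Mpo differed by up to 12.9 times. The last bin, 25, moved more, with 1.71%, 2.12% and 1.39% in the wt embryos and 1.49% and 1.44% in hnRNP L deficient replicates 2 and 3, highest in wt replicate 2.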

How the data were processed

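The authors sequenced stranded mRNA libraries, aligned the reads to GRCm38 (TopHat2 2.0.10), and deposited raw counts of reads per Ensembl gene, made with HTSeq, and per exon bin. Of all reads, 46.7% to 53.3% were assigned to no gene, mostly because they did not align uniquely (39.8% to 44.7%), and were left out. The deposited counts were normalized by TMM, filtered with filterByExpr and tested with the quasi-likelihood test of edgeR 4.0.16 in R 4.3.3 with robust estimation, genotype as the only term and Benjamini-Hochberg adjustment over 14396 genes. FPKM are CPM per kilobase of exon in GENCODE. For exon usage, diffSpliceDGE was run on bins averaging 10 reads or more. A pseudocount of 0.1 CPM was used for log2 values. Alternatives were DESeq2 1.42.0, limma 3.58.1 (voom with sample weights, diffSplice), total counts or median-of-ratios factors in place of TMM, looser and stricter filters, no robust estimation, each library left out and a block on the first part of the embryo number. The steps were tested on simulated data in which all genes had the same modest variation between libraries. This does not measure their power for genes as variable as the members.

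The members and gene lists were chosen with earlier results of these data known. The study lists 4 of the members, Mpo, Prtn3, Ctsg and Hp, as lower in knockout cells from these same libraries. The direction of the members is therefore no independent evidence. The study tested expression with DESeq, and describes RT-qPCR of other down-regulated genes, such as Gfi1 and Runx1. The named genes were, by rule, the members and from each other list up to 4 genes past the threshold and the 2 with the highest mean CPM, with Hnrnpl, Lyz1 and the 5 genes most like the azurophil genes. Ltf, Lcn2, Cst7, Adam8, Cebpa, Csf3r, Ccr2, Ly6c2, Prss34, Tpsb2, Vsig4 and Ly6g were named after their values were seen. Exon bins of hnRNP L deficient replicate 1 and splice junctions were not analysed here, and some listed genes are not reported here.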

Additional observations from a re-analysis of the deposited data

How the results depend on the processing

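The lowest member level, that of Camp in wt replicate 1, rested on 22 reads. No member was called under any normalization, filter, tool or single library left out that was tried. Both exceptions were added after the data had been seen. The first left out wt replicate 2 and hnRNP L deficient replicate 1 together. It removes the highest wt and the lowest hnRNP L deficient library, which raises the difference by construction. There 2 members, Ngp (log2 fold change 4.05) and S100a8 (3.05), were called, where 10.7% of all genes were, and the median over the members was 0.62. The log2 fold change was then 0.57 for Elane, 0.0948 for Ctsg, 0.96 for Ms4a3, 0.66 for Lyz2, 0.33 for Hp and 3.47 for Camp, each reversed. The second took the first part of the embryo number as a block. Only 1 of the 4 first parts is found in both genotypes, so that the genotype difference came from wt replicate 1 and hnRNP L deficient replicate 1 alone. There was 1 residual degree of freedom, and the error was also drawn from the variation of other genes. Under this block 7 members were called as lower, where 37.1% of all genes were called, but these calls set 1 embryo against 1 embryo. Camp (1.13) and Ngp (-0.77) were reversed, and the median over the members was -0.91. Of the other alternatives, limma-voom reversed Camp (2.26) and S100a8 (1.64). With 1 library left out, the log2 fold change ranged from -3.41 to 0.0872 for Elane, -2.94 to 0.50 for Ms4a3, -1.79 to 0.16 for Lyz2, -1.02 to 2.91 for Camp, -2.35 to 2.50 for S100a8 and -2.95 to 0.12 for the median over the members. The positive end of each came without wt replicate 2, and Camp was also reversed without hnRNP L deficient replicate 1 (0.18). The causes were not tested. Mpo and Prtn3 kept their direction in all 15 alternatives, and Ngp in all but the block. Of the other granule, regulator and neutrophil genes, 3 were called by edgeR, 8 by DESeq2, 7 by limma-voom, 0 to 11 with 1 library left out, 11 without both libraries named above and 20 under the block. Over all genes, calls fell from 2759 to between 5 and 17 without wt replicate 3 or any 1 hnRNP L deficient library. The median SD of the members in wt was 1.14 to 3.34 with 1 library left out, and that in hnRNP L deficient libraries 0.118 to 1.93. The difference between late and azurophil genes kept its direction, between 1.41 and 3.39. No exon bin of a member was called in the alternatives with more than 1 library in each genotype, which does not show that usage was unchanged. The labels give no replicate numbers, and do not say what the first part of the embryo number stands for.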
